A study of Mus musculus with 5 samples.

Results

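The 38 genes described here are classical type I interferon-stimulated genes, taken from a fixed list of gene symbols. That list was set with earlier results of these data known. Of the 38, 37 had a column in the deposited tables of the 5555 tumours (18087 genes) and the CT26 tumour (19427 genes), where Mx2 had none. In the dendritic cell cultures, 36 had a column among 19603 genes, with neither Mx1 nor Mx2. The members are 3 transcription factors (Irf7, Irf9, Stat2), the ubiquitin-like modifier Isg15 with Usp18 and Herc6, 6 nucleic acid sensors, 4 IFIT genes, 5 OAS-family genes, and a further group of antiviral effectors and less characterised induced genes.

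The study profiled single leukocytes with droplet libraries (10X Genomics), sorted as live CD45+ cells. Tumours of the 5555 melanoma line grew subcutaneously in C57BL/6 mice and were taken at day 4. They came as Ptgs+/+ tumours, Ptgs-/- tumours, and Ptgs-/- tumours in mice depleted of NK cells with anti-NK1.1 (clone PK136) and anti-Asialo GM-1 antibodies. CT26 tumours in BALB/c mice received no treatment and were taken at day 12. Bone marrow-derived dendritic cells of C57BL/6 mice, grown with FLT3L and GM-CSF and harvested at day 10, were untreated, exposed to 5555 Ptgs+/+ cells or exposed to 5555 Ptgs-/- cells, and the 3 conditions were pooled by hashtag in 1 library. Ptgs genes encode cyclooxygenases, and the labels do not say which gene was deleted. The deletion is carried by the injected tumour cells, which the CD45 sort leaves out, so it could not be checked in these libraries. Each of the 7 groups is 1 library or 1 hashtag, and the number of mice behind it is not given in the sources used here. There is therefore no replicate error and no test between conditions, and the differences below compare these libraries. Intervals on levels, shares and ratios cover counting error only.

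Type I interferons are secreted after nucleic acids are sensed in a cell. They bind the IFNAR1/IFNAR2 receptor, whose kinases JAK1 and TYK2 phosphorylate STAT proteins, STAT2 among them. With IRF9 these form the ISGF3 complex, which binds interferon-stimulated response elements (ISRE) in the promoters of genes such as those described here. Interferon-γ acts through STAT dimers on a different element (GAS), and the genes induced by the 2 pathways overlap. In tumours, type I interferon is known for its part in dendritic cell function and T cell priming.

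Depth and cell numbers differed between groups. The 5555 groups held 3262 Ptgs+/+ cells, 4677 Ptgs-/- cells and 3879 cells of the NK-depleted group, with median totals of 3634, 4562 and 5462 UMIs (unique molecular identifiers, counting captured transcripts). The CT26 tumour gave 8987 cells with a median of 3822 UMIs, and the cultures 3344, 3884 and 3584 cells with medians of 9709, 8876.5 and 8806 UMIs. Cell classes are the authors' own annotation; monocytes and tumour-associated macrophages (TAM) carry the numbers the authors gave them, which do not correspond between the 5555 and CT26 tables. In the NK-depleted library the 45 cells annotated as NK cells had a summed NK marker level of 17 CPM (UMIs of the listed genes scaled to a common total per cell and averaged over cells), against 10872 in Ptgs+/+ and 11486 in Ptgs-/- tumours, and a summed T cell marker level of 2772 CPM. The NK class of that library is left out of what follows.

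Promoter sequences were searched for the core letters of the ISRE. The promoters below are those of the members that were among the 8 most abundant and held the ISRE core; each is the 250 bases before the annotated start in RefSeq (GRCm38.p6), 5′ to 3′ on the gene's strand, with the ISRE core GAAANNGAAA, searched on both strands, in capitals. The regions are chr4:156200819-156201068 (minus strand) for Isg15, chr11:82951852-82952101 (plus strand) for Slfn5, chr7:104465194-104465443 (minus strand) for Trim30a and chr12:26456453-26456702 (minus strand) for Rsad2.
Isg15: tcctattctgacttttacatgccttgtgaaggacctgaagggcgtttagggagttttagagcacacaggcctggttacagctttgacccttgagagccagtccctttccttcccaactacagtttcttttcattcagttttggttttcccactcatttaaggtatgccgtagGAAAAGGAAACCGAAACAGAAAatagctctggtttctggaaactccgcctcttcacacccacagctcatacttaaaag
Slfn5: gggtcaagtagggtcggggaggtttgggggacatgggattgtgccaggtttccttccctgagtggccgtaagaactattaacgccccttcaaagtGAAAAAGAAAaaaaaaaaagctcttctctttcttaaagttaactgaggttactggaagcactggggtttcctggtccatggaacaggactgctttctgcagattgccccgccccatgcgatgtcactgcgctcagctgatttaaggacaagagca
Trim30a: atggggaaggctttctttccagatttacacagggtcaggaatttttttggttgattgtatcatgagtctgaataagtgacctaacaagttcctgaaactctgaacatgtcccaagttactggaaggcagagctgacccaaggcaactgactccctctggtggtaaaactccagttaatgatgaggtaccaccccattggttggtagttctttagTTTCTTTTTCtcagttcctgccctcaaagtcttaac
Rsad2: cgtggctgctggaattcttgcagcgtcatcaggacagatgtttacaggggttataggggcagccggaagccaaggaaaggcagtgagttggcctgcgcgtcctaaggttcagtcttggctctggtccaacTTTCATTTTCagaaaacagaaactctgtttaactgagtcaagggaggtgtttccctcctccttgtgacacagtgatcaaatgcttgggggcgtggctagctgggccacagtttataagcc
In Isg15 3 overlapping matches begin 78, 72 and 66 bases before the RefSeq start; the single matches of Slfn5, Rsad2 and Trim30a begin 155, 120 and 36 bases before theirs. GENCODE places the start of Slfn5 farther upstream, at base 82951349, so this window lies inside the gene in that annotation. Of the 28 members with an entry, 12 (42.9%) held the ISRE core, against 936 of 27025 genes (3.46%), counting a match at any listed start of a gene. The others were Stat2, Ifi205, Ifit1, Ifit3, Ifit3b, Oas1a, Oas3 and Phf11b. The GAS letters TTCNNNGAA stood in 4 of 28 members (14.3%) and in 2197 of all genes (8.13%). In a list of 14 interferon-γ response genes, 7 of the 9 with an entry (77.8%) held the ISRE core and 5 (55.6%) the GAS letters. None of 14 housekeeping genes with an entry held the ISRE core. A match describes these letters in this window, and its absence says nothing about the factor. Some members also sit together in the genome: 4 IFIT genes on chromosome 19, Rsad2 and Cmpk2 on chromosome 12, and Ifi204 and Ifi205 on chromosome 1. On chromosome 5, Oas1a, Oas2 and Oas3 lie together, and Oasl1 and Oasl2 lie together apart from them.

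Summed over the members, the level over all cells was highest in the CT26 tumour. It was 2749 CPM in Ptgs+/+, 3321 CPM in Ptgs-/- and 3471 CPM in NK-depleted tumours, 9012 CPM in CT26, and 1394, 1185 and 1365 CPM in untreated cultures and cultures with Ptgs+/+ or Ptgs-/- cells. CT26 differs from the 5555 tumours in tumour line, mouse strain, day and library, which cannot be told apart. The sums over all cells also carry the class composition: Monocytes 1, the class with the highest level in each 5555 group, made up 6.93% of Ptgs+/+ cells, 14.9% of Ptgs-/- cells and 28.6% of cells in the NK-depleted group, and held 16.6%, 42.3% and 56.9% of all member UMIs. With class shares fixed to those of the Ptgs+/+ tumour, the ratio to that tumour was 1.22 for Ptgs-/- (1.21 unadjusted) and 0.925 for the NK-depleted group (1.26 unadjusted). The order of those 2 groups therefore turned once composition was fixed.

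The 8 most abundant members did not follow 1 common order over the 7 groups. Isg15, the ubiquitin-like modifier conjugated to proteins in infected cells, stood at 231.8 CPM in Ptgs+/+, 175.2 in Ptgs-/- and 126.5 in NK-depleted tumours, at 988.1 in CT26, and at 94.8, 185.1 and 150.5 in the cultures. Irf7, the factor that amplifies interferon production, had 78.2, 138.1 and 148.3 CPM in the same 5555 groups, 703.9 in CT26 and 43.7, 37.8 and 47.4 in the cultures. Rsad2, which encodes the antiviral enzyme viperin, had 89.0, 215.3 and 203.0 CPM, then 551.9 in CT26 and 3.2, 4.1 and 5.0 in the cultures. Isg15 was thus lowest of the 5555 groups in the NK-depleted one, while Irf7 and Rsad2 were lowest in Ptgs+/+.

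Slfn5, a Schlafen-family gene, had 317.0, 331.8 and 393.1 CPM in the 5555 groups, 553.8 in CT26 and 75.3, 45.2 and 62.2 in the cultures. Ifi204, a DNA sensor, had 279.3, 275.5 and 341.9 CPM, 416.2 in CT26 and 25.2, 19.97 and 28.3 in the cultures. Trim30a, a regulator of inflammatory signalling, had 255.6, 266.4 and 300.8 CPM, 360.1 in CT26 and 172.3, 142.4 and 168.4 in the cultures. These 3 genes varied less between tumours than Irf7 and Rsad2 did. Epsti1 had 172.7, 192.3 and 149.9 CPM, 200.5 in CT26 and 55.5, 52.1 and 61.9 in the cultures. Samd9l, a restriction factor, had 67.6, 105.7 and 92.8 CPM, 232.2 in CT26 and 140.2, 72.7 and 97.8 in the cultures. Samd9l alone of the 8 was higher in untreated cultures than in each of the 3 groups of 5555 tumours.

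**Figure D1:**
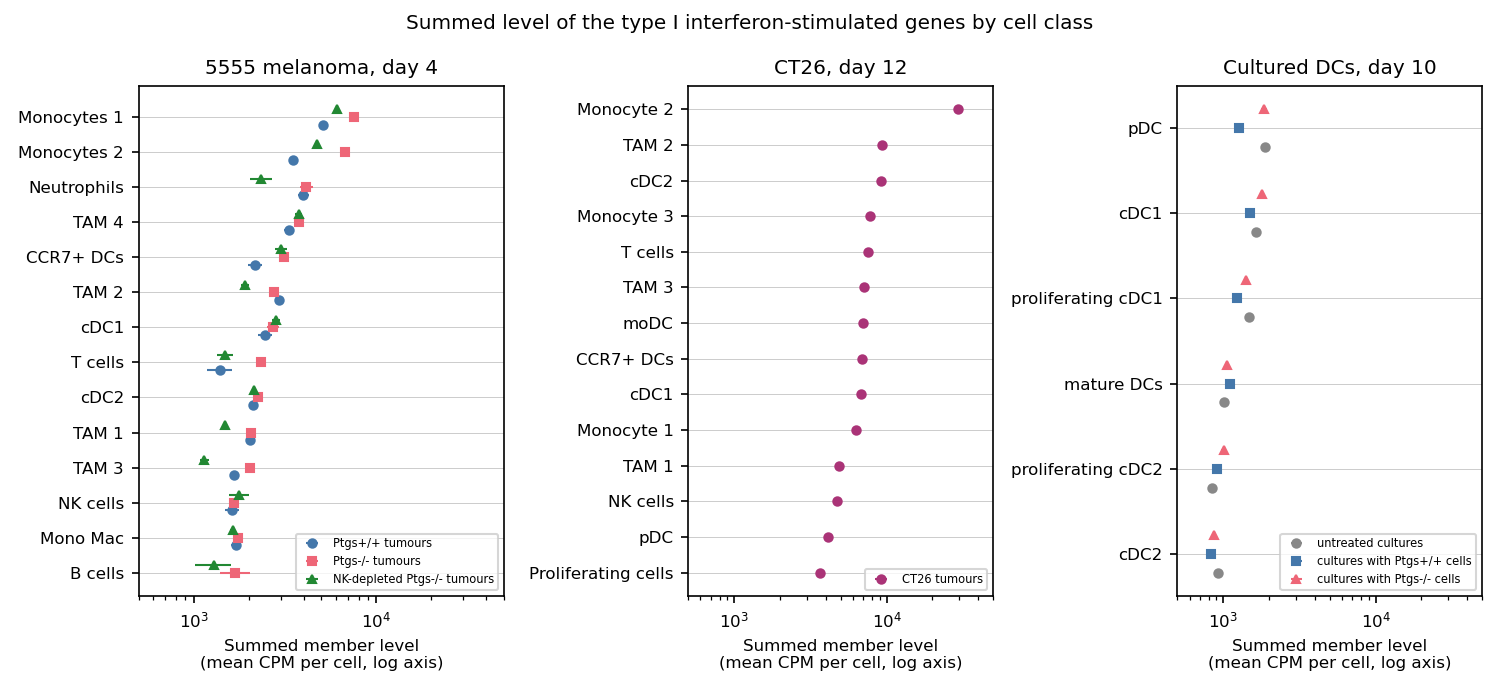
Summed member level (mean CPM per cell, log axis) for each annotated class in the 5555 tumours, CT26 and the cultures; points are groups and bars exact Poisson 95% intervals, often narrower than the point. Monocyte 2 of CT26 stands at 29556 CPM, and Monocytes 1 and 2 have the highest levels of the Ptgs-/- tumour at 7519 and 6771 CPM.

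Monocytes carried the highest summed level of the 5555 tumours. Monocytes 1 stood at 5119 CPM in Ptgs+/+, 7519 in Ptgs-/- and 6069 in NK-depleted tumours, and Monocytes 2 at 3490, 6771 and 4727 CPM. Neutrophils had 3993, 4143 and 2354 CPM. The macrophage classes ranged lower: TAM 4 at 3343, 3777 and 3758, TAM 1 at 2044, 2062 and 1481, and TAM 3 at 1672, 2044 and 1148 CPM. Among dendritic cells, CCR7+ DCs stood at 2181, 3138.5 and 3026 CPM, and cDC2, the conventional subset that presents mainly to CD4+ T cells, at 2109, 2243 and 2130. T cells had 1399, 2349 and 1487.5 CPM. In the cultures the classes ranged from 837 CPM in cDC2 with Ptgs+/+ cells to 1867 CPM in untreated plasmacytoid dendritic cells (pDC).

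In CT26 1 class stood apart. Monocyte 2, with 821 cells (9.14% of the tumour), had a summed level of 29556 CPM (exact Poisson interval 29354 to 29759), and held 23.7% of the 345118 member UMIs. The next were TAM 2 at 9295 and cDC2 at 9138 CPM, and proliferating cells were lowest at 3629. Of the 37 members, 34 had their highest level in Monocyte 2, with a median ratio to the next class of 2.21. The share of all genes with their highest level in that class is not given here. The authors annotated the class in these same cells, and what part the members had in that annotation was not tested. Its summed monocyte marker level, 10341 CPM, was also the highest of the CT26 classes, with 4242 CPM of macrophage markers and 227 CPM of neutrophil markers.

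Several effectors stood far above the next class, while others did not. Rsad2 had 3067 CPM in Monocyte 2, against 597 CPM in TAM 2. Cmpk2, a mitochondrial nucleotide kinase next to Rsad2, had 481 against 95 CPM. Ifit2 and Ifit3, which bind foreign RNA, had 1420 and 1148 CPM, with 327 CPM in cDC2 and 270 CPM in T cells as the next levels. Isg15 had 4036 CPM, next to 1325 CPM in CCR7+ DCs and 270 CPM in pDC, its lowest class. Each of these genes was at least as far above the next class as the median member. Other effectors were closer to theirs: Isg20 had 416 CPM, against 251 in T cells, and Eif2ak2 262 CPM, against 141 in cDC2.

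Regulators and sensors were also high in Monocyte 2. Irf7 had 1818 CPM there and 1014 in Monocyte 3, and the sensors Ifih1 and Zbp1 had 476 and 1030 CPM, against 151 and 426. Samd9l (441 CPM, 389 in T cells) and Ifi205 (331 CPM, 316 in cDC1) were nearly level with the next class. Irf9 (117 CPM, 137 in moDC, the authors' monocyte-derived dendritic cells), Parp9 (137 CPM, 138 in T cells) and Epsti1 (486 CPM, 525 in CCR7+ DCs) were the 3 exceptions.

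**Figure D2:**
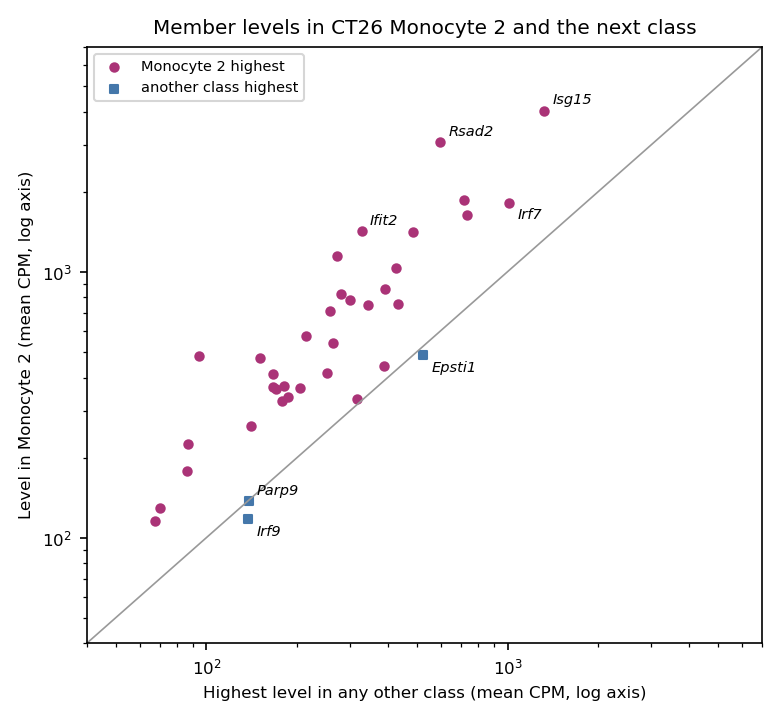
Each point is 1 of 37 members, with its level in CT26 Monocyte 2 against the highest level in any other class (mean CPM, log axes; the line marks equality). Rsad2, at 3067 against 597 CPM, is among the farthest above the line, and Irf9, Parp9 and Epsti1 lie on or below it.

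Between Ptgs-/- and Ptgs+/+ tumours, the median member stood higher in both monocyte classes and near level in most macrophage classes. Folds are differences of log2(mean CPM over cells + 5), and a member counted as higher or lower past a 1.5-fold difference, among members seen in at least 5% of cells of either group. In monocytes and macrophages pooled (3184 and 2360 cells), 13 of the 36 members that passed were higher and 1 lower (14 and 1 of all 37), where 8.47% of the 7690 genes tested were higher and 6.57% lower. The median member fold was 0.44 and that of all genes 0.06. The summed level was 3830 against 2875 CPM, a UMI ratio of 1.35 (exact conditional interval 1.33 to 1.37). The 2 pools differed in composition: Monocytes 1 made up 21.8% of the Ptgs-/- and 9.58% of the Ptgs+/+ pool, and TAM 2 7.54% and 28.7%. With class shares fixed to those of the Ptgs+/+ tumour, the summed level was 3622 against 2875 CPM and the median 0.37. This computation was added after the data were seen. Of all 37 members, 12 were then higher and 1 lower. The share of all genes under fixed class shares is not given, so these counts have no background beside them.

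By role, the largest folds of the pool, with its composition as found, were among effectors. The transcription factors split: Irf7 stood 1.07 higher on the log2 scale, Stat2 0.50 and Irf9 -0.09. Isg15 was at -0.07, while Usp18, the protease that removes Isg15 and restrains receptor signalling, was at 0.76 and Herc6, its ligase, at 0.50. Of the sensors, Ifi205 (0.99) passed the size threshold, and Ifih1 (0.43), Zbp1 (0.35), Dhx58 (0.23), Ddx58 (0.08) and Ifi204 (0.06) did not. The 3 IFIT genes that passed the filter were higher: Ifit2 by 1.60, Ifit3 by 1.30 and Ifit1 by 0.88. Ifit3b, the member that did not pass, had 102 and 14 UMIs (ratio 4.02, 2.29 to 7.62).

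The OAS family, which holds the synthetases whose product activates RNase L and related OAS-like genes, had folds in both directions. Oasl1 was 1.23, Oas3 0.48, Oasl2 0.44, Oas2 -0.03 and Oas1a -0.70. Rsad2 had the largest fold of all members at 1.79, ahead of Ifit2, and Cmpk2 stood at 1.45 and Ifi44 at 1.41. The GTPase Mx1 stood at 0.77, the translation-blocking kinase Eif2ak2 at 0.54 and the exonuclease Isg20 at -0.37. Of the remaining induced genes Phf11b was at 1.23, Parp9 and Xaf1 at 0.38, Parp14 at 0.25, Ifi35 at -0.05 and Rtp4 at -0.09.

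Within single classes the 2 monocyte populations differed most. In Monocytes 2 (257 and 348 cells) the median member fold was 0.86, and 25 of 35 members that passed were higher and none lower (26 and 0 of 37), where 10.8% of genes were higher; with no replicates no test stands behind these counts. The UMI ratio was 1.87 (1.80 to 1.95). Ifit1 had 149 against 16.7 CPM (144 and 22 UMIs, ratio 7.90, 5.02 to 13.0) and Rsad2 308 against 61.9 CPM. Usp18 stood 1.97 higher, Mx1 1.68 and Herc6 1.56, and Oas1a (0.05) and Isg20 (0.09) were lowest. The 8 other ways of computing this median gave 0.79 to 1.03.

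In Monocytes 1 (695 and 226 cells) the median was 0.51, with 16 of 37 members higher and none lower, where 8.95% of genes were higher. The UMI ratio was 1.54. Ifi44 had 44.9 against 7.41 CPM (208 and 8 UMIs, ratio 6.75, 3.36 to 15.8), and Cmpk2 99.1 against 38.4 CPM. Oas1a (-0.21) and Isg20 (-0.12) were again lowest. When log2 values were averaged over cells before subtraction, the median was 1.15.

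Among macrophages the medians were 0.04 in TAM 1, -0.07 in TAM 2, -0.01 in TAM 3, 0.34 in TAM 4 and 0.10 in Mono Mac, the authors' monocyte-macrophage class. Single members nevertheless differed there in opposite directions. Rsad2 was past the threshold on the higher side in all 7 monocyte and macrophage classes, from 1.14 to 2.23, and Cmpk2, Ifit2 and Phf11b in 6. Isg15 was past it on the lower side in 3 and on the higher side in none (-1.19 to 0.53), and Oas1a on the lower side in 5 (-1.60 to 0.05). TAM 3 shows both: Rsad2 had 300.1 against 74.8 CPM and Irf7 81.3 against 26.7, while Rtp4 stood at -0.97 and Epsti1 at -0.59.

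Neutrophil marker levels were lower in TAM 1 and TAM 2 of the Ptgs-/- tumour, where Isg15 was lower too. The summed level of 8 neutrophil markers was 773 CPM in Ptgs+/+ TAM 2 and 119 in Ptgs-/- TAM 2, and 517 and 193 CPM in TAM 1. Neutrophils of the Ptgs+/+ tumour themselves held 857.6 CPM of Isg15. Without cells that carried an S100a8 UMI, the Isg15 fold was -1.12 in TAM 2 (-1.19 with them) and -0.87 in TAM 1 (-0.93), and the Rsad2 fold of TAM 2 was 1.73 (1.36). What part neutrophil transcripts had in the Isg15 folds was not tested.

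**Figure D3:**
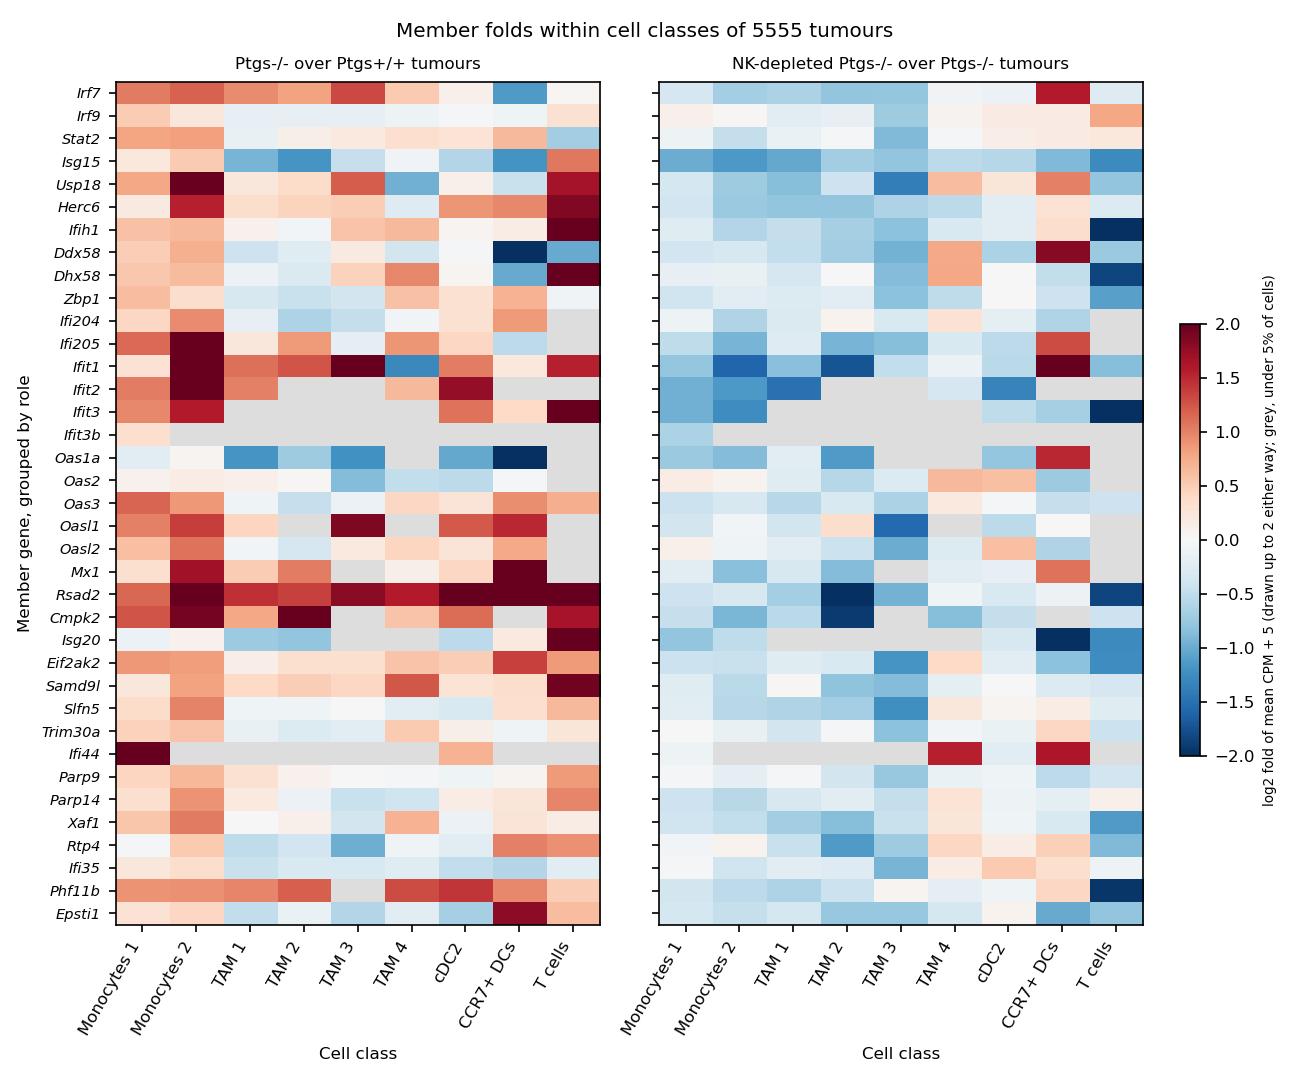
Log2 folds of mean CPM + 5 for each member (rows) in 9 classes of the 5555 tumours (columns), drawn up to 2 either way, with Ptgs-/- over Ptgs+/+ on the left and NK-depleted over Ptgs-/- on the right; grey marks members in under 5% of cells. Monocytes 1 and 2 are mostly red on the left, Rsad2 is red in each class shown there, and TAM 3 is mostly blue on the right.

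Lymphocytes and dendritic cells held fewer cells. In T cells (214 and 66 cells) the median was 0.85, with 18 of 27 members higher and 2 lower (24 and 2 of 37), where 23.2% of genes were higher and 18.5% lower. Samd9l had 162 against 38.8 CPM there, on 66 and 5 UMIs. In cDC2 (523 and 379 cells) the median was 0.21, with 9 of 36 higher and 2 lower, where 10.7% of genes were higher and 7.57% lower. Rsad2 had 81.1 against 16.0 CPM in cDC2 and Phf11b 88.4 against 29.7, while Oas1a stood at -1.03 and Epsti1 at -0.67.

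In CCR7+ DCs (58 and 54 cells) the median was 0.26, with 13 of 33 higher and 6 lower (15 and 8 of 37), where 24.0% of genes were higher and 23.7% lower. Rsad2 had 176 against 6.45 CPM there, on 70 and 3 UMIs (ratio 18.1, 5.95 to 90.0), and Ddx58, the RNA sensor RIG-I, 5 against 16 UMIs. In cDC1, which cross-present to CD8+ T cells, the median was 0.52 on 33 and 38 cells, and those of the Ptgs-/- tumour carried a summed neutrophil marker level of 1376 CPM, whose part in the result was not tested. Neutrophils stood at 0.01 and NK cells at 0.20.

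The NK-depleted group is compared with the same Ptgs-/- library as above, so the 2 comparisons share it, and a high value there raises one and lowers the other. In pooled monocytes and macrophages (3108 and 3184 cells) the median member fold was -0.03, and 0 of 36 members were past the threshold on either side, where 1.14% of 7823 genes were higher and 1.29% lower. The pool again differed in composition, with Monocytes 1 at 35.6% against 21.8% of its cells. With class shares fixed to those of the Ptgs-/- tumour the median was -0.36, with 0 of 37 higher and 6 lower. Here too the share of all genes under fixed class shares is not given. In 5 of the 7 classes the median was below -0.3. In Monocytes 1 (1108 and 695 cells) the median was -0.36, with 0 of 37 higher and 7 lower, where 2.05% of genes were lower. The 4 IFIT genes were among those 7. Isg15 had 233 against 469 CPM and Ifit3 55.1 against 112.

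In Monocytes 2 (449 and 257 cells) the median was -0.50, with 13 of 35 lower (14 of 37), where 3.48% of genes were lower. Ifit1 had 46.1 against 149 CPM, and Rtp4 (0.08) and Oas2 (0.07) were highest. The macrophage classes had medians of -0.36 in TAM 1 (10 of 33 lower, 11 of 37, against 1.25% of genes), -0.62 in TAM 2 (16 of 32, 17 of 37, against 8.54%) and -0.82 in TAM 3 (23 of 29, 27 of 37, against 9.55%). In TAM 3 Slfn5 stood at -1.23 and Eif2ak2 at -1.19, while Parp14 stood at -0.48 and Ifi204 at -0.30. When log2 values were averaged over cells before subtraction, the TAM 3 median was -0.40. TAM 4 (-0.06) and Mono Mac (-0.04) were near 0.

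Isg15 was the member lower in most classes, past the threshold in 6 of 7 monocyte and macrophage classes (-1.16 to -0.52). Its levels in Ptgs+/+, Ptgs-/- and NK-depleted tumours were 402, 469 and 233 CPM in Monocytes 1, 125, 62.9 and 28.6 in TAM 1, and 141, 92.2 and 60.8 in cDC2. The NK-depleted value was the lowest of the 3 in each of these classes. Rsad2 had 217, 485 and 364 CPM in Monocytes 1, 61.9, 308 and 245 in Monocytes 2 and 50.7, 138 and 26.0 in TAM 2. In the 2 monocyte classes Rsad2 thus stayed above the Ptgs+/+ level in the NK-depleted tumour, and in TAM 2 it did not.

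T cells of the NK-depleted group (109 against 214 cells) had a median fold of -0.79, with 1 of 27 higher and 15 lower (2 and 20 of 37), where 15.6% of genes were higher and 15.8% lower. Phf11b had 4 against 31 UMIs there, and Irf9 stood at 0.77. In cDC2 the median was -0.12, with Oas2 and Oasl2 at 0.61, Ddx58 at -0.63 and Isg15 at -0.56. In CCR7+ DCs (45 and 58 cells) it was 0.07, with Epsti1 at 504 against 1024 CPM.

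The rest of the pathway was followed with lists that hold no member, the ligands over all cells and the other lists in pooled monocytes and macrophages. Of 17 ligand genes listed, 2 had a column in each tumour table and 4 in that of the cultures. Ifnb1 had 1 UMI in the Ptgs+/+ cells, 0 in 4677 Ptgs-/- cells, which allows a share of up to 0.0641% of cells with a captured UMI and sets no limit on cells expressing the gene, and 8 UMIs in 2 cells of the NK-depleted group. CT26 had 4 Ifnb1 UMIs, and the cultures 2 (untreated), 0 (with Ptgs+/+ cells) and 9 (with Ptgs-/- cells). Ifnb1 was thus nearly undetected. Ifne had 0 UMIs in the 5555 groups and Ifnk 3 in CT26, and ligands without a column could not be followed. Receptors and kinases were within the threshold between Ptgs-/- and Ptgs+/+ tumours (Ifnar1 -0.12, Ifnar2 -0.54, Jak1 0.16, Tyk2 -0.01). Of 12 signalling and induction genes that passed (16 listed), none was lower, and Ikbke, a kinase upstream of interferon induction, stood at 0.67. Of 7 negative regulators 1 was lower (Socs3, -0.75).

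Interferon-γ response genes had medians farther from 0 than the members in both monocyte classes, a difference that was not tested. In Monocytes 2 the median of that list was 1.23 between Ptgs-/- and Ptgs+/+ tumours (9 of 10 higher, with Gbp5 at 1.67 and Gbp2 at 1.59), and -0.81 between the NK-depleted and Ptgs-/- tumours (7 of 10 lower). In Monocytes 1 it was 0.83 (10 of 12 higher, with the GTPase Iigp1 at 3.06) and -0.80 (8 of 12 lower, with Iigp1 at -2.21). Some genes of that list, Irf1 and Socs1 among them, are also in another of the pathway lists. In TAM 3 the first comparison gave -0.35 on only 6 genes of that list that passed the filter, where the member median was -0.01. How far the member values of monocytes reflect type I interferon or interferon-γ was not tested.

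The promoter split did not separate the folds. In pooled monocytes and macrophages the 12 members with an ISRE core had a median fold of 0.61 between Ptgs-/- and Ptgs+/+ tumours and the 16 without it 0.47, and in Monocytes 2 the values were 0.89 and 0.94.

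Cell-to-cell spread inside classes was followed on cells thinned to 2000 UMIs, using the Fano factor (variance over mean) of the summed member UMIs, which is near 1 for counting noise alone. In TAM 3 the median cell had 3, 2 and 1 member UMIs in Ptgs+/+, Ptgs-/- and NK-depleted tumours, and 15.9%, 22.1% and 33.3% of cells had none. The Fano factor was 4.08, 14.3 and 7.12, and 2.61, 7.82 and 2.98 without the 5 highest cells. The 10% of cells with most member UMIs held 34.6%, 52.5% and 47.6% of the member UMIs. The mean was 3.56 in Ptgs+/+ and 4.21 in Ptgs-/- cells, and member UMIs were spread less evenly in the latter. The 5 highest Ptgs-/- cells carried much of that Fano factor.

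The Ptgs-/- value was the highest of the 3 in TAM 1, TAM 2 and cDC2 as well. The Fano factor was 4.14, 10.5 and 5.22 in TAM 1, 4.86, 10.9 and 4.51 in TAM 2, and 3.80, 8.96 and 4.76 in cDC2. Without the 5 highest cells TAM 2 had 3.73, 4.40 and 2.14, so most of its excess rested on those cells. Cells with at least 20 member UMIs, a limit chosen after the values were seen, were 2 of 207 (0.97%, exact binomial interval 0.12 to 3.45%), 23 of 471 (4.88%, 3.12 to 7.24%) and 3 of 276 (1.09%, 0.22 to 3.14%) in TAM 3. In Monocytes 2 they were 11 of 320 (3.44%, 1.73 to 6.07%), 59 of 244 (24.2%, 18.9 to 30.1%) and 8.72%.

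In the monocyte classes the typical cell differed too. The median cell of Monocytes 1 held 7, 11 and 10 member UMIs and that of Monocytes 2 held 6, 10 and 7. The Fano factors of Monocytes 1 were 14.7, 10.8 and 7.55, and 7.27, 8.89 and 6.41 without the 5 highest cells of each group. In Ptgs-/- TAM 3 the 10% of cells with most member UMIs had a median of 10 different members with a UMI against 2 in the rest, on total depths of 3226 and 3678 UMIs before thinning. These cells were picked by their member UMIs (a mean of 21.1 against 2.26), so that difference was largely fixed by the choice. The same top cells also held 2.25 against 0.49 UMIs of interferon-γ response genes and 2.25 against 1.39 of monocyte markers. What part those genes had in the result was not tested.

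**Figure D4:**
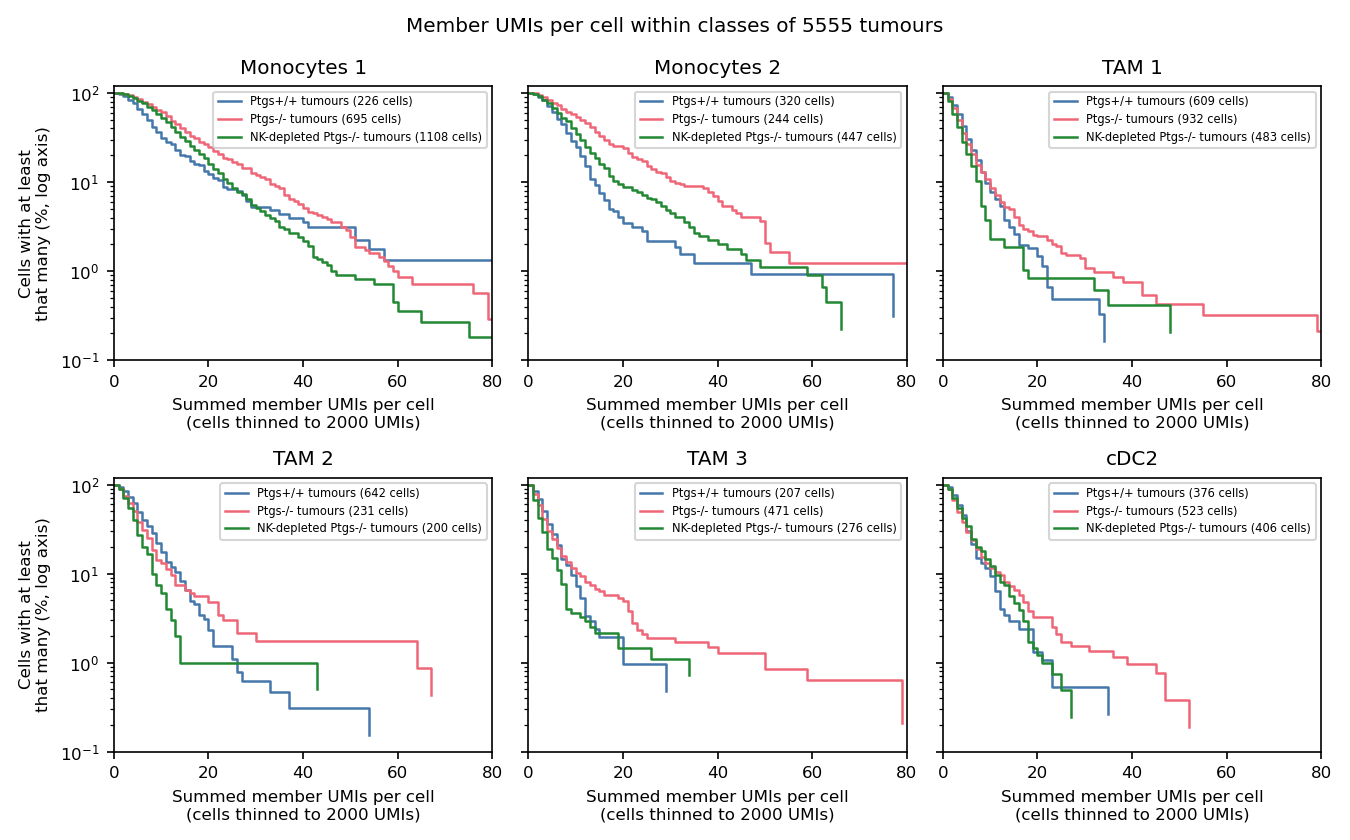
Share of cells (percent, log axis) with at least a given number of summed member UMIs, in cells thinned to 2000 UMIs, for 6 classes and 3 groups of 5555 tumours. In TAM 3, TAM 1 and cDC2 the Ptgs-/- curve runs farthest right, and in TAM 3 it starts below the Ptgs+/+ curve at low numbers. In Monocytes 2 the Ptgs-/- curve lies to the right of the Ptgs+/+ curve over nearly its whole length.

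Monocyte 2 of CT26 had no cell without a member UMI among 784 thinned cells. Its 10th percentile was 25, its median 53 and its 90th percentile 101.7 member UMIs, with a Fano factor of 14.8. Members divided into 2 sets correlated across its cells with a Spearman coefficient of 0.82. Housekeeping genes treated the same way gave -0.07 to 0.18 over the classes and groups. The 2 lists were not matched for UMI numbers, which bear on such a coefficient. Member coefficients of the other classes are not given here, so the 2 values do not compare like with like. Over all 61 sets of 1 class in 1 group, the member Fano factor was above 2.

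In the cultures most median member folds were small, and the values of single members are given for mature DCs and pDC. Both exposed groups are compared with the same untreated cells, and values are centred on the median of all genes where it was off 0 by more than 0.1. In mature DCs with Ptgs+/+ cells (1060 against 214 cells) the median was 0.27, with 5 of 27 members higher and 1 lower (9 and 1 of 36), where 8.56% of genes were higher and 10.8% lower. Without centring that median was -0.0091. Isg15 had 323 against 107 CPM (UMI ratio 2.48, 2.18 to 2.83) and Epsti1 47.4 against 156 CPM. With Ptgs-/- cells (477 cells) the median was 0.25, with 5 of 27 higher and 1 lower (7 and 1 of 36), where 6.5% of genes were higher and 9.14% lower, and Isg15 had 227 CPM. Isg15 made up 10.6% of the summed level in untreated mature DCs, and 29.2% and 21.4% in those with Ptgs+/+ and Ptgs-/- cells, and no IFIT gene passed the filter.

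In pDC, the dendritic cells known for producing type I interferon, cultures with Ptgs-/- cells exceeded those with Ptgs+/+ cells (312 and 200 cells): the median was 0.50, with 10 of 27 higher and none lower (12 and 0 of 36), where 9.84% of genes were higher, and the UMI ratio was 1.44. Usp18 had 59.3 CPM in untreated pDC, 18.8 with Ptgs+/+ and 56.4 with Ptgs-/- cells, and Slfn5 138.5, 68.0 and 136. The cultures with Ptgs+/+ cells thus stood apart from the other 2, with medians against untreated pDC of -0.32 for Ptgs+/+ and -0.03 for Ptgs-/- exposure. In cDC1 the medians against untreated cells were 0.17 (-0.069 without centring) and 0.27, and in cDC2 0.07 and 0.21.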

How the data were processed

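Live CD45+ cells were profiled in 5 droplet libraries. The authors deposited log2 values per cell, log2(CPM + 1), with their cell annotation; per the submitters' processing notes the tools include Cell Ranger 3.0.2 and Partek, with build mm10. Undoing the log gave whole UMI numbers, within rounding, for 99.9% of values, and those UMIs were used; no count model was run, since each group is 1 library. Doublet treatment is not given in the sources used here, and no caller was run. From the 5555 tumours, 36 unannotated cells were left out, as were 18 cells whose 9 barcodes were shared between libraries, leaving 11818 of 11872 cells.

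Levels are the mean CPM over the cells of a class, with exact Poisson intervals on summed UMIs. Folds are differences of log2(mean CPM + 5), in classes with at least 30 cells in both groups, for members in at least 5% of cells of either group. A fold counts past 1.5 times in either direction. Ratios of UMIs have exact conditional binomial intervals (95%). Spread was computed on cells thinned to 2000 UMIs in tumours and 5000 in cultures, leaving out shallower cells. The scripts were tested on simulated data. The named genes are the 8 members with the highest mean level over groups, and in each class and comparison the 2 highest and 2 lowest member folds in at least 10% of cells, with the roles of all members in the pooled class; other genes named were chosen after their values were seen. Some genes that the rules would name are not reported here. The members and lists were chosen with earlier results of these data known. Python 3.11.15, numpy 2.4.6, pandas 2.3.3 and scipy 1.17.1 were used.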

Additional observations from a re-analysis of the deposited data

How the results depend on the processing

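No paired analysis was possible because each group is 1 library or 1 hashtag. Of 209 alternative values of the 19 median member folds, 205 stayed within the wider half-width of the main median's interval over members. That interval describes the spread among members and measures no error of the fold. Direction was checked only where that interval left out 0. With another centring, the median in cultures with Ptgs+/+ cells over untreated cultures turned to -0.0091 in mature DCs and -0.069 in cDC1, so those small positive medians depend on centring; in cDC2 with Ptgs-/- cells it moved to 0.064, and to 0.036 with a pseudocount of 20. Summed levels were computed in 32 other ways, and 23 moved beyond their counting intervals. Weighting cells by depth gave 2567 (Ptgs+/+), 3290 (Ptgs-/-), 8683 (CT26), 1328, 1136 and 1276 CPM (untreated cultures, with Ptgs+/+ cells, with Ptgs-/- cells). Without the 5% of cells with most genes the levels were 2795, 3350, 3517 (NK-depleted), 9147 and 1411 (untreated). Keeping cells with at least 500 genes gave 3496 in the NK-depleted group. Without Isg15 they were 2517, 3146, 3345, 8023, 1299, 999.8 and 1214. With class shares fixed they were 3355, 2544, 1228 and 1421. That adjustment was not run for Ptgs+/+, CT26 and untreated groups, which are references or have none. The Fano factor stayed above 2 in 46 of 61 sets thinned to 1000 UMIs, 61 not thinned and 60 without Isg15; the cause was not tested. Chosen after seeing the data, 8 alternatives of the within-class medians gave -0.46 to -0.32 (Monocytes 1), -0.64 to -0.43 (Monocytes 2), -0.43 to -0.29 (TAM 1) and -0.86 to -0.40 (TAM 3) for NK-depleted over Ptgs-/- tumours, and -0.17 to 0.12 in TAM 3 for Ptgs-/- over Ptgs+/+ tumours.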

Other observations

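Several members had their highest level of the 5555 tumours outside the monocytes. Ifi205, a DNA sensor gene of the Ifi200 family, stood at 678 CPM in cDC1 of Ptgs+/+ tumours and 668 CPM in cDC1 of the NK-depleted group. Epsti1 reached 1024 CPM in CCR7+ DCs of Ptgs-/- tumours. Irf9 was highest in Ptgs-/- B cells at 164 CPM, on only 11 UMIs.

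Across 41 sets of 1 class in 1 group of the 5555 tumours, the non-member genes whose level ran most closely with the member mean included Trim30c (Pearson r = 0.81), Phf11d (0.77), Parp12 (0.74), Map3k15 (0.74), Ifi27l2a (0.73), Sem1 (0.73), Gpx3 (0.72), Nxpe4 (0.72) and Fam26f (0.72). Sets of 1 group share a library, so these values describe the tables and carry no test. Measured the same way against the other members, Ifit2 (0.82) and Irf7 (0.81) were closest, and Samd9l (0.05) and Ddx58 (0.28) farthest.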
